A study of Homo sapiens with 8 samples.

Results

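The genes described here are the matrix metalloproteases (MMP), the ADAM and ADAMTS proteases, the tissue inhibitors of metalloproteases (TIMP1 to TIMP4), the urokinase and tissue plasminogen activators (PLAU and PLAT) and the urokinase receptor (PLAUR). They were picked out by gene symbol, which took 72 of the 31412 named rows of the array table: 24 MMPs, 22 ADAMs, 19 ADAMTS genes, 4 TIMPs and 3 genes of plasminogen activation. Earlier results of these data were known when these families were chosen. Illumina bead arrays were used to measure transcripts in the triple-negative breast cancer line MDA-MB-231, carrying a doxycycline-inducible estrogen receptor beta (ESR2). One group of 3 cultures received 1 nM estradiol and the other group of 3 received the ethanol vehicle, each for 5 days with the medium changed on day 3. All 6 cultures were plated for about 80% confluence in charcoal-stripped serum and given 100 ng/ml doxycycline beforehand. Doxycycline was thus common to both groups, but the ESR2 transcript changed by -1.17 on the log2 scale with estradiol. The contrast is that of ligand with no ligand in cells given doxycycline to induce the receptor. No culture without doxycycline was analysed here. Whether the line is a single clone, and which promoter drives the receptor, are not given in the sources used here.

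MMPs, ADAMs and ADAMTS proteases are metalloenzymes: in the active members a zinc ion in the catalytic domain cleaves the substrate. Secreted MMPs degrade collagens and other matrix proteins, membrane-type MMPs act at the cell surface, ADAMs release the outer parts of membrane proteins (shedding), and ADAMTS enzymes process proteoglycans, procollagens and other matrix proteins. TIMPs block these enzymes by binding the active site, and the plasminogen activators turn plasminogen into plasmin, a serine protease that degrades fibrin and can activate secreted MMPs. In breast cancer these systems are known for their part in the invasion of surrounding tissue.

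The 5 promoters shown belong to the called genes with the largest falls and rises among those whose promoter sequence could be printed here from the RefSeq table. Each line gives the 250 bases before the annotated transcript start, 5′ to 3′ on the strand of the gene, in GRCh38.p14 coordinates, with GGGCGG or its reverse complement CCGCCC, the core of the SP1 motif, in capitals. ADAMTS6 (chr5:65481921-65482170, minus strand) and ADAM17 (chr2:9555831-9556080, minus strand) were lower with estradiol. PLAU (chr10:73910360-73910609, plus strand), ADAM10 (chr15:58749708-58749957, minus strand) and MMP14 (chr14:22836335-22836584, plus strand) were higher.
ADAMTS6: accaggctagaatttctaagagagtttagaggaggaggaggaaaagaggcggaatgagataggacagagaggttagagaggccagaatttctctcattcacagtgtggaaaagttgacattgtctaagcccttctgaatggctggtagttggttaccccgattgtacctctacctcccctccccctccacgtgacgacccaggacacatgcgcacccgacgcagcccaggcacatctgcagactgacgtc
ADAM17: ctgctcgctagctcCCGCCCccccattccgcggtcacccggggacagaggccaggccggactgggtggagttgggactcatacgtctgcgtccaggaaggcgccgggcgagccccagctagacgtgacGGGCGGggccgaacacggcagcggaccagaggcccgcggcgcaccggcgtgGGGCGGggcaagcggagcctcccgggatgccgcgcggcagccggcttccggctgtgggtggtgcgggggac
PLAU: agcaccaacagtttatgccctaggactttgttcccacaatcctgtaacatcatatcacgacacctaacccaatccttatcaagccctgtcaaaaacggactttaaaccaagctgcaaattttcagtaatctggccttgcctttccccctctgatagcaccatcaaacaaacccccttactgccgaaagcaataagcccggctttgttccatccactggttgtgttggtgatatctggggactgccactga
ADAM10: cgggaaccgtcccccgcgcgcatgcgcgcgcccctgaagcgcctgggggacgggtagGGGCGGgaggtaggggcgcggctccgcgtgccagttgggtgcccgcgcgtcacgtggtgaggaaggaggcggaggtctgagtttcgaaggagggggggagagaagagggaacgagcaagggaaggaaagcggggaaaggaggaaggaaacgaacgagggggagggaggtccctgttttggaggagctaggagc
MMP14: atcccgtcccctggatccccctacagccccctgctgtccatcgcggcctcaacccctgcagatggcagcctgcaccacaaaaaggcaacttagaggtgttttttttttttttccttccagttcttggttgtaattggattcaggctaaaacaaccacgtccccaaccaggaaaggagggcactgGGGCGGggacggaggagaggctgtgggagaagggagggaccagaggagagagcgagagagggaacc

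The table held promoters of 41 of the 72 genes and of 14 of the 20 that could be tested. ADAM9, ADAMTS9, MMP1, MMP3, PLAT and TIMP2 were not among them. Both strands of the 300-base window, which runs on to 50 bases after the start, were searched. For each of the 14 the first promoter listed was used. The shares beside them count all 35116 promoters, whether or not the gene was tested. The SP1 core stood in 11 of the 14 windows, against 44.954% of 35116 promoters, and PLAU, PLAUR and ADAMTS6 lacked it. The NF-kB letters (GGG and CC with any 5 bases between them), which can overlap an SP1 core, stood in 13 of the 14, all but ADAMTS6, against 58.668% of promoters. The AP-1 letters TGANTCA stood in the PLAUR window alone, against 7.709% of promoters. The estrogen response element (GGTCA and TGACC with any 3 bases between them) was in none of the 14, and in 0.057% of promoters. These are letter matches in a short window and describe the sequence only.

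The 8 arrays each detected 10172 to 11123 rows, with median raw signals of 66.3 to 75.4. The first principal component, with 61.9% of the variance over tested rows, separated estradiol from vehicle arrays. The second, with 13.3%, set the repeat array of vehicle culture 3 (score -25.7) apart from the same culture's first array (19.8). This pair of arrays correlated at 0.980 across genes, which are not independent replicates, and the 2 arrays of estradiol culture 1 at 0.992. VIM, CD44, MSN and CAV1, markers of this basal B line, were detected on all 8 arrays, and ESR1 and PGR on none. ERBB2, low or absent in triple-negative lines, read 7.69 to 7.92 in the cultures, although its combined row passed detection on 1 array only. The introduced ESR2 was detected on all 8 and was 1.17 lower on the log2 scale with estradiol. Of 8 markers of immune, endothelial and fibroblast cells, 6 (PTPRC, CD3E, PECAM1, VWF, DCN and LUM) were detected on no array, and CD68 (0.41 higher on the log2 scale with estradiol) and PDGFRB (-0.48) on all 8. Of 4 luminal epithelial markers 3 were called higher with estradiol. CDH1, detected on no vehicle array, was at least 4.71-fold higher, and KRT19 and EPCAM were at 1.81 and 0.68 on the log2 scale. KRT18 was not called (0.43). Of the 4 basal B markers 3 were also called higher: CAV1 at 0.92, VIM at 0.68 and MSN at 0.36. CD44 was not called (0.13). The part of these marker changes in the protease results was not tested.

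Testing required a detection p-value under 0.01 on at least 3 of 8 arrays, and a gene was called where limma's Benjamini-Hochberg adjusted p was under 0.05 across 11191 tested rows. Of the 72 genes 20 were tested, and 14 of these were detected on all 8 arrays. With estradiol 7 of the 20 rose (PLAT, PLAU, ADAM10, MMP14, ADAM9, ADAM15 and MMP11) and 5 fell (MMP1, MMP3, ADAMTS9, ADAMTS6 and ADAM17), while 8 were not called. Over all tested rows 13.6% were called higher, 14.2% lower and 27.7% in either direction, and of the 20 genes 60% were called. The genes were chosen with earlier results known, so this share is a description only. The median absolute log2 change was 0.43 for the 20 genes and 0.22 for all tested rows, and the median signed change was 0.28 for the 20 genes and -0.02 for all tested rows. Estradiol and vehicle cultures did not overlap for any of the 12 called genes, nor for 14 of the 20 tested, against 42.8% of all tested rows. Without the repeat array of vehicle culture 3 the counts were 8 higher and 4 lower, TIMP3 being added and ADAM17 lost. Without vehicle culture 3 altogether they were 2 higher and 5 lower, and over all tested rows 1035 higher and 922 lower, against 1518 and 1586 with it. With arrays centred on their medians in place of quantile normalization, the median of all tested rows moved to 0.14 and the calls over all rows from 1518 higher and 1586 lower to 2053 higher and 540 lower. The 20 genes then gave 10 higher and 4 lower. In these bulk RNA samples, fewer cells expressing a gene and less RNA per cell cannot be told apart.

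**Figure D1:**
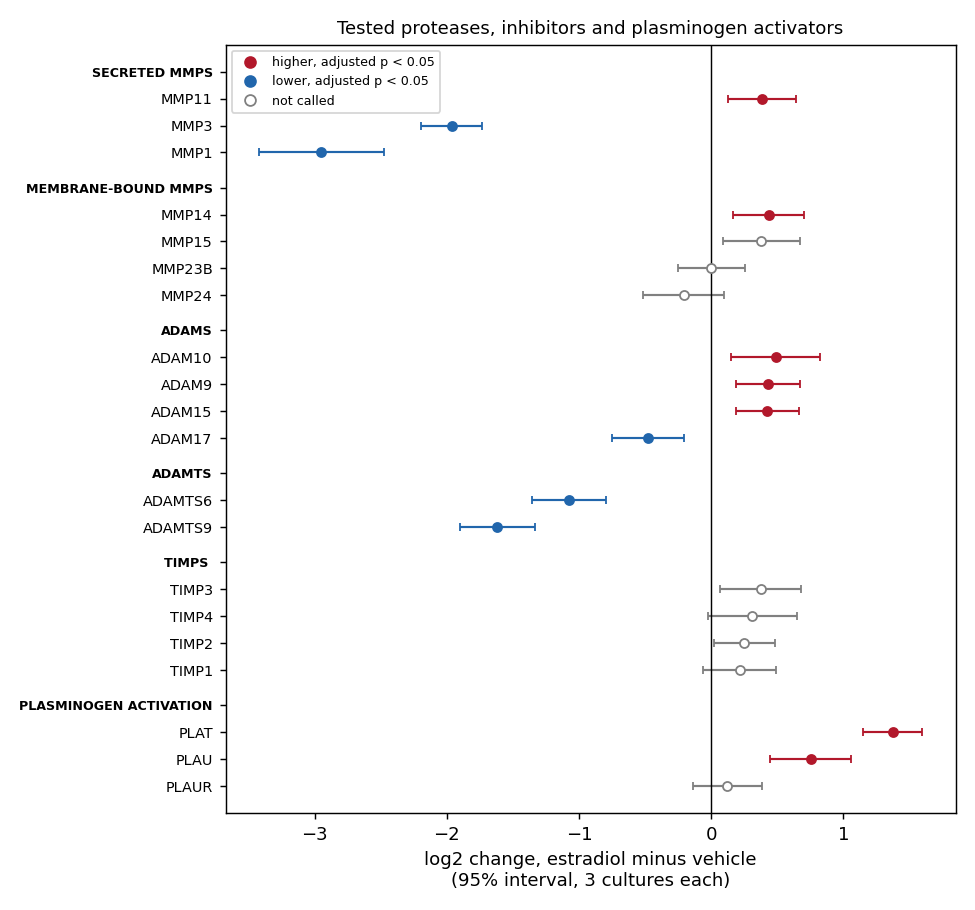
Log2 change (estradiol minus vehicle, horizontal axis) with its 95% interval for the 20 tested genes, grouped by family, with 3 cultures per treatment. Filled red points are called higher, filled blue points called lower and open grey points not called; MMP1 at -2.95 and PLAT at 1.37 lie farthest to either side, and all 4 TIMPs are open.

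Among the secreted MMPs, interstitial collagenase and stromelysin-1 fell and stromelysin-3 rose. MMP1, the interstitial collagenase that cleaves fibrillar collagens, read 6.47, 7.08 and 6.66 in estradiol cultures 1 to 3, against 9.34, 10.18 and 9.54 in vehicle cultures 1 to 3 (normalized log2 signal). Every estradiol culture was far below every vehicle culture, and vehicle culture 2 was the highest. The means were 6.74 ± 0.31 with estradiol and 9.69 ± 0.43 with vehicle (SD, n = 3 each), a change of -2.95 (SE 0.21, 95% interval -3.42 to -2.48, limma adjusted p = 4.5e-06), or 7.72-fold lower. It was the fall of rank 4 among all tested rows. The change was -3.07 among arrays of chip A, -3.18 among those of chip B and -3.12 with the chip as a block.

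MMP3, stromelysin-1, which degrades proteoglycans and can activate procollagenases, read 5.11, 5.24 and 5.19 in estradiol cultures, against 7.06, 7.18 and 7.20 in vehicle cultures. It was detected on 1 of 4 estradiol arrays and on all 4 vehicle arrays, and its estradiol values lay at the lowest level at which a single probe was detected (5.14 to 5.39 across arrays). With the estradiol level at that floor no fold is given; the fitted change was -1.96 (SE 0.10, limma adjusted p = 4.77e-07), with -2.04 on chip A, -1.98 on chip B and -1.06 with no background correction. MMP1 and MMP3 are neighbours in a run of 9 MMP genes on chromosome 11 with no other gene between them in the RefSeq gene table (MMP7, MMP20, MMP27, MMP8, MMP10, MMP1, MMP3, MMP12 and MMP13, in GRCh38.p14 order). Only these 2 of the 9 were tested, and both fell.

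MMP11, stromelysin-3, which is activated by furin inside the cell, read 6.51, 6.66 and 6.31 in estradiol cultures, against 6.11, 6.09 and 6.13 in vehicle cultures. The groups did not overlap, but the value of vehicle culture 3 averages 2 arrays at 5.83 and, on repeat, 6.44, the second of which lies above estradiol culture 3. The change was 0.38 (SE 0.12, limma adjusted p = 0.0324). The call was lost without estradiol culture 1 (adjusted p = 0.0660), estradiol culture 2 (0.141), vehicle culture 2 (0.0659) or vehicle culture 3 (0.0902). The change was 0.26 on chip A, which was not called, and 0.53 on chip B.

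Of the 6 membrane-type MMPs, 3 were tested and 1 was called. MMP14, the collagenase anchored in the cell membrane that activates pro-MMP2, read 5.95, 5.68 and 5.79 in estradiol cultures, against 5.28, 5.55 and 5.30 in vehicle cultures. It was dim, being detected on all 4 estradiol arrays and on 1 vehicle array, and the groups did not overlap. The change was 0.43 (SE 0.12, limma adjusted p = 0.0235), with 0.49 on chip A and 0.47 on chip B, neither called. The call was lost without estradiol culture 1 (adjusted p = 0.0665), estradiol culture 3 (0.0700), vehicle culture 1 (0.0509) or vehicle culture 3 (0.0980). MMP15, another membrane-type enzyme, read 5.69, 5.90 and 5.96 with estradiol, against 5.66, 5.49 and 5.26 with vehicle, with all estradiol cultures above all vehicle cultures. Its change of 0.38 (SE 0.13, limma adjusted p = 0.0525) missed the threshold, and passed it without estradiol culture 1 (0.0409) or vehicle culture 1 (0.0219). MMP24 averaged 5.10 with estradiol and 5.31 with vehicle (change -0.21, limma adjusted p = 0.295), and was detected on 1 estradiol and 2 vehicle arrays. MMP23B averaged 5.57 in both groups (change 0.00, 95% interval -0.25 to 0.26). MMP23A and MMP23B are near-identical copies, so signal could be shared between them.

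**Figure D2:**
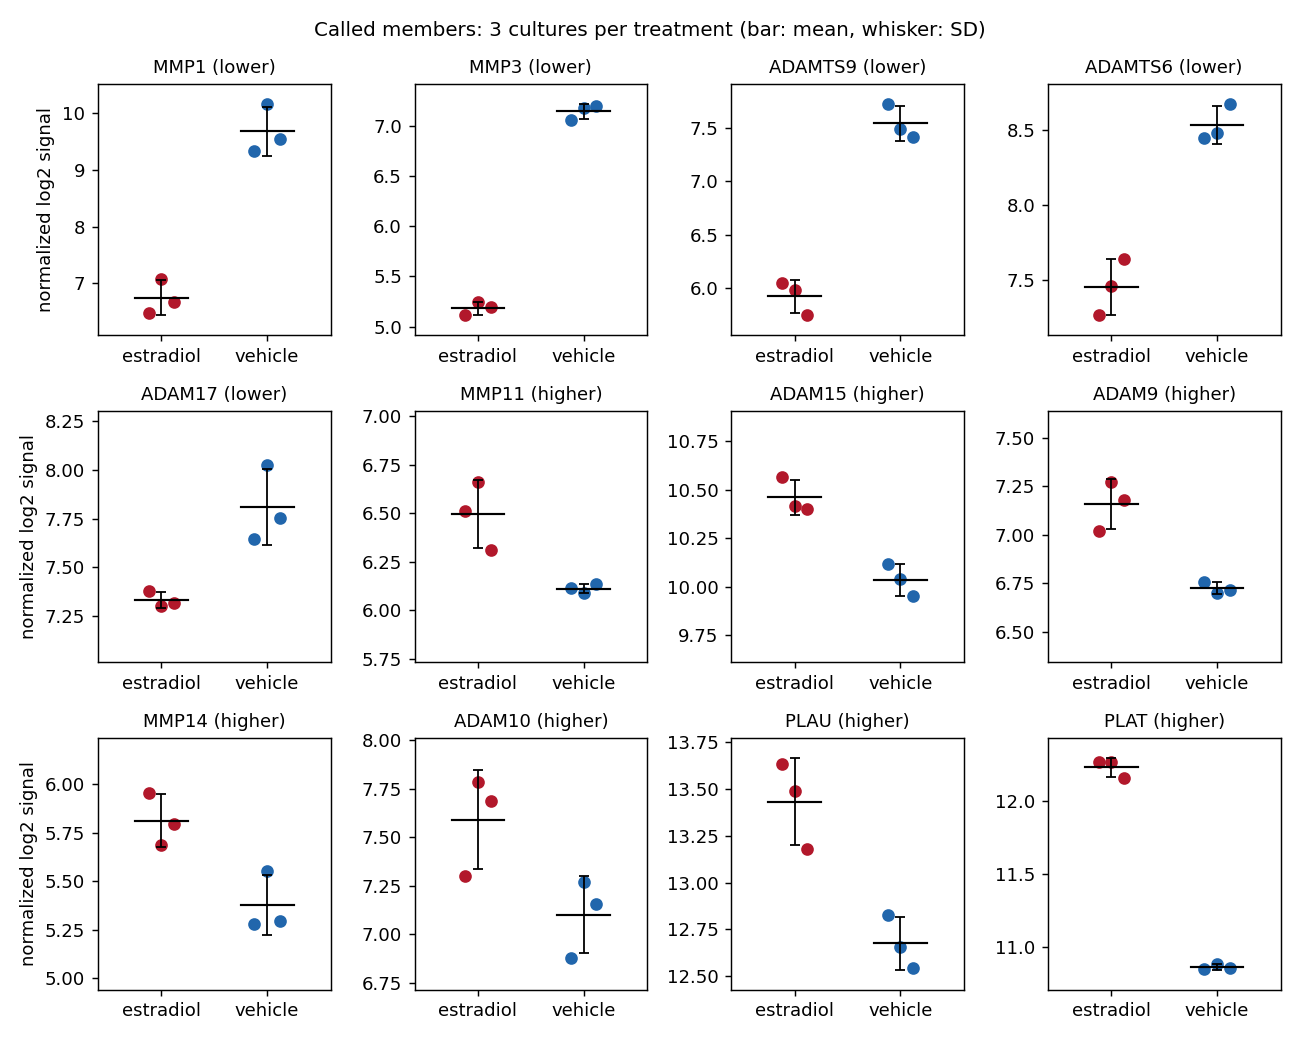
Normalized log2 signal (vertical axis, scaled to each gene and not starting at 0) of the 12 called genes in 3 estradiol cultures (red, left) and 3 vehicle cultures (blue, right). Points are cultures, the bar is the mean and the whisker the SD; no estradiol culture overlaps a vehicle culture in any panel, and MMP1 has the widest gap, with means of 6.74 with estradiol and 9.69 with vehicle.

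All 4 tested ADAMs were called, 3 higher and 1 lower. ADAM10 and ADAM17, which shed many of the same growth factor precursors, receptors and adhesion molecules, had opposite signs. ADAM10 read 7.30, 7.78 and 7.69 in estradiol cultures, against 6.88, 7.27 and 7.15 in vehicle cultures. The lowest estradiol culture stood just above the highest vehicle culture. The first array of estradiol culture 1 alone read 7.12, below vehicle culture 2, and the call was lost when the repeat array was placed in culture 3, where the series text puts it (0.39, adjusted p = 0.135), or when both repeat arrays were left out (0.41, 0.144). The change was 0.49 (SE 0.15, 95% interval 0.15 to 0.82, limma adjusted p = 0.0351), with 0.13 on chip A, 0.41 on chip B and 0.23 with the chip as a block, none of them called. The call was also lost without estradiol culture 2 (adjusted p = 0.138), estradiol culture 3 (0.121), vehicle culture 1 (0.0889) or vehicle culture 3 (0.0813).

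ADAM17, the tumour necrosis factor converting enzyme, read 7.38, 7.30 and 7.31 in estradiol cultures, against 7.65, 8.03 and 7.75 in vehicle cultures. The estradiol cultures were tightly grouped below all vehicle cultures. The change was -0.48 (SE 0.12, 95% interval -0.75 to -0.21, limma adjusted p = 0.0146). The 2 arrays of vehicle culture 3 read 7.30 and, on repeat, 8.20, and without the repeat array the change was -0.33 (adjusted p = 0.177). The call was also lost without estradiol culture 2 (0.0555) or estradiol culture 3 (0.0561), on either chip alone (-0.72 on chip A and -0.28 on chip B) and with median centring (-0.25, adjusted p = 0.277). Of the 20 tested rows, 5 were taken as combining several probes: ADAM10, ADAM17, ADAM15, TIMP2 and MMP23B.

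ADAM9, a sheddase that also binds integrins, read 7.02, 7.27 and 7.18 in estradiol cultures, against 6.76, 6.70 and 6.72 in vehicle cultures. The groups did not overlap, and the change was 0.43 (SE 0.11, limma adjusted p = 0.0143). It was 0.05 on chip A and 0.63 on chip B, and the call was lost without estradiol culture 2 (adjusted p = 0.0704), estradiol culture 3 (0.0604) or vehicle culture 3 (0.0577). ADAM15, which carries an integrin-binding disintegrin domain, read 10.56, 10.42 and 10.40 in estradiol cultures, against 10.12, 10.04 and 9.95 in vehicle cultures. Its change was 0.42 (SE 0.11, limma adjusted p = 0.0145), with 0.40 on chip A, not called, and 0.56 on chip B. It was lost without vehicle culture 3 (adjusted p = 0.0741).

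A further ADAM protease, ADAM19, was bright but was set aside. Its combined row read 9.97, 9.96 and 10.06 in estradiol cultures, against 9.49, 9.32 and 9.39 in vehicle cultures, yet its deposited detection p-value was under 0.01 on no array. In all, 1192 rows, each of them combined, were set aside although at or above the lowest detected single-probe level on at least 3 arrays. ADAM19 was the only one of these among the 72 genes. Fitted without the detection filter, its change was 0.60 (SE 0.07, limma adjusted p = 0.0020).

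Both tested ADAMTS genes fell. ADAMTS9, a proteoglycanase that cleaves versican and aggrecan, read 6.05, 5.98 and 5.75 in estradiol cultures, against 7.73, 7.49 and 7.41 in vehicle cultures. The groups were far apart, and the change was -1.62 (SE 0.13, limma adjusted p = 8.27e-06), or 3.07-fold lower, of rank 32 among all falls. On chip A it was -1.41 and on chip B -1.51. ADAMTS6 read 7.26, 7.46 and 7.64 in estradiol cultures, against 8.44, 8.48 and 8.68 in vehicle cultures. All vehicle cultures were above all estradiol cultures, and the change was -1.08 (SE 0.13, limma adjusted p = 0.000146), or 2.11-fold lower, of rank 106, with -1.51 on chip A and -0.95 on chip B. ADAMTS9 and ADAMTS6 were detected on all 8 arrays.

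None of the 4 TIMPs was called, and all 4 estimates were above 0. TIMP1, a secreted inhibitor of most MMPs, averaged 14.17 ± 0.07 with estradiol and 13.96 ± 0.20 with vehicle (SD, n = 3 each), a change of 0.22 (95% interval -0.06 to 0.49, limma adjusted p = 0.227). TIMP2, which also takes part in the activation of pro-MMP2 by MMP14, averaged 10.53 with estradiol and 10.28 with vehicle, a change of 0.25 (0.02 to 0.48, adjusted p = 0.101), and its groups did not overlap. TIMP3, which binds to the matrix and inhibits ADAM17 as well as MMPs, read 7.30, 7.21 and 6.83 in estradiol cultures, against 6.66, 6.71 and 6.84 in vehicle cultures. Estradiol culture 3 lay within the vehicle range, and the change was 0.37 (0.07 to 0.68, limma adjusted p = 0.0666), passing the threshold without that culture (0.52, adjusted p = 0.0237), with the estradiol repeat array placed in it (0.43, 0.0145) and without the vehicle 3 repeat array (0.44, 0.0395). TIMP4 averaged 6.39 with estradiol and 6.08 with vehicle, a change of 0.31 (-0.03 to 0.65, limma adjusted p = 0.155), passing without estradiol culture 2 (0.0291). TIMP1 passed without vehicle culture 1 (0.0474). With the chip as a block all 4 TIMPs were called higher, with changes of 0.25 to 0.55. That fit, on single arrays, called 2382 of 11191 tested rows higher and 2690 lower, against 1518 and 1586 as reported.

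Both plasminogen activators rose and their receptor was not called. PLAT, tissue plasminogen activator, read 12.27, 12.27 and 12.16 in estradiol cultures, against 10.84, 10.88 and 10.86 in vehicle cultures. The groups lay far apart, although the 2 arrays averaged for vehicle culture 3 read 10.61 and, on repeat, 11.10. The change was 1.37 (SE 0.10, 95% interval 1.15 to 1.6, limma adjusted p = 4.92e-06), or 2.59-fold higher, of rank 162 among all rises. It was 1.36 on chip A and 1.47 on chip B. PLAU, urokinase, read 13.63, 13.49 and 13.18 in estradiol cultures, against 12.83, 12.66 and 12.55 in vehicle cultures. The groups did not overlap, and the change was 0.76 (SE 0.14, 95% interval 0.45 to 1.06, limma adjusted p = 0.00246), or 1.69-fold higher, with 0.77 on chip A, not called, and 0.96 on chip B. PLAUR, the receptor that holds urokinase at the cell surface, averaged 9.75 ± 0.17 with estradiol and 9.62 ± 0.06 with vehicle (SD, n = 3 each), a change of 0.12 (95% interval -0.14 to 0.38, limma adjusted p = 0.471). With the chip as a block PLAUR was called higher (0.23, adjusted p = 0.0499). In that fit 2382 of 11191 tested rows were called higher, against 1518 as reported.

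The other 52 genes were set aside: 44 were detected on no array, 7 on 1 array and MMP9 on 2 arrays, both of estradiol cultures. They included both gelatinases (MMP2 and MMP9), both matrilysins (MMP7 and MMP26), the collagenases MMP8 and MMP13, all 10 ADAMs without an intact catalytic site (ADAM2, ADAM7, ADAM11, ADAM18, ADAM22, ADAM23, ADAM29, ADAM32 and the pseudogenes ADAM5 and ADAM6), and all 3 procollagen N-propeptidases (ADAMTS2, ADAMTS3 and ADAMTS14). The remaining MMPs set aside were MMP10, MMP12, MMP16, MMP17, MMP19, MMP20, MMP21, MMP23A, MMP25, MMP27 and MMP28. The remaining ADAMs, besides ADAM19, were ADAM8, ADAM12, ADAM20, ADAM21, ADAM28, ADAM30 and ADAM33. The remaining ADAMTS genes were ADAMTS1, ADAMTS4, ADAMTS5, ADAMTS7, ADAMTS8, ADAMTS10, ADAMTS12, ADAMTS13, ADAMTS15, ADAMTS16, ADAMTS17, ADAMTS18, ADAMTS19 and ADAMTS20. With ADAM19 left out, culture values ran from 4.31 to 5.36, near or below the lowest detected single-probe levels, where a difference between treatments is hard to measure. Fitted without the filter, ADAMTS19 was the only one besides ADAM19 to be called (0.47, limma adjusted p = 0.0212), and it was detected on 1 array.

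Across 21 alternative processings the calls fell into a stable and a less stable set. MMP1, ADAMTS9, ADAMTS6 and PLAT were called in all 21, and MMP3 in all 20 in which it was tested. PLAU was called in 20 of 21, ADAM15 in 19, ADAM9 in 17, MMP11 in 14 and ADAM17 in 13, and MMP14 in 11 and ADAM10 in 9 of the 20 that tested them. No called gene changed sign. Sizes in both directions depended on the background correction: with the background inferred from all rows MMP1 was at -1.32, MMP3 at -0.15, ADAMTS9 at -0.19, ADAMTS6 at -0.32 and ADAM17 at -0.11. ADAM10 was then at 0.09, ADAM9 at 0.05, MMP11 at 0.03 and MMP14 at 0.02, whereas PLAT was at 1.64, PLAU at 0.80 and ADAM15 at 0.59. With no background correction MMP1 was at -2.39, MMP3 at -1.06, ADAMTS9 at -1.02 and ADAMTS6 at -0.86.

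**Figure D3:**
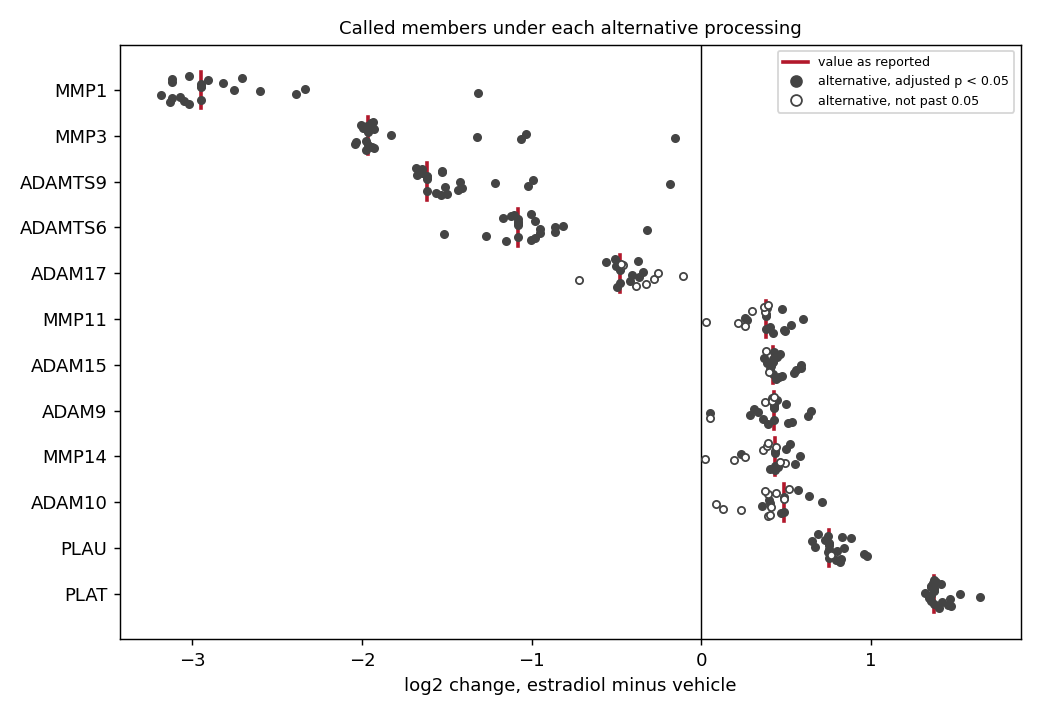
Log2 change (estradiol minus vehicle, horizontal axis) of the 12 called genes as reported (red line) and under each alternative processing (points, spread vertically for legibility). Filled points are past an adjusted p of 0.05 and open points are not; MMP1, MMP3, ADAMTS9, ADAMTS6 and PLAT have filled points only, and ADAM10 and MMP14 have many open ones.

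Genes that act on these proteases were taken from 6 lists with 61 genes, of which 34 were tested. Of the 34, 12 rose, 6 fell and 16 were not called, against the same backgrounds of 13.6% and 14.2%. Inhibitors of plasmin and related serine proteases gave the largest share of calls: all 5 tested were called, 4 higher and 1 lower. SERPINB2, plasminogen activator inhibitor 2, read 4.90, 4.72 and 4.77 with estradiol, where it was detected on 1 of 4 arrays, against 6.47, 6.70 and 6.56 with vehicle. The estradiol values lie below the lowest detected single-probe level, so no fold is given; the fitted change was -1.78 (SE 0.11, limma adjusted p = 1.51e-06), and -0.87 with no background correction. SERPINE2, protease nexin-1, which also inhibits plasminogen activators, rose by 0.78 (limma adjusted p = 0.000291). SERPINF2, the plasmin inhibitor alpha-2-antiplasmin, rose by 0.69, and the membrane-bound inhibitors SPINT1 and SPINT2 by 0.60 and 0.53. Over the alternative processings the smallest changes were -0.10 for SERPINB2, 0.67 for SERPINE2, 0.04 for both SERPINF2 and SPINT1, and 0.49 for SPINT2.

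In the list of plasminogen and its receptors and cofactors, 5 genes were tested. F3 (tissue factor), counted in that list, is known as the starter of coagulation and rose by 0.75 (SE 0.15, limma adjusted p = 0.00492). The other 4, S100A10, ENO1, ANXA2 and PLGRKT, were not called, with changes of 0.14, -0.11, -0.13 and -0.27. Of 5 tested activators and regulators of MMPs, 2 rose and 1 fell. RECK, a membrane-anchored inhibitor of MMPs, was at 0.69 (SE 0.18, limma adjusted p = 0.0159), and lost the call without estradiol culture 2 (0.0686), estradiol culture 3 (0.0625) or vehicle culture 3 (0.0620). FURIN, the protease that activates MMP11, MMP14 and ADAM proenzymes, was at 0.50 (limma adjusted p = 0.00503), and at 0.39 without the vehicle 3 repeat array (adjusted p = 0.0551). TFPI2, a secreted inhibitor of plasmin, was detected on all 4 vehicle arrays and on no estradiol array, and was at least 2.20-fold lower with estradiol (limma adjusted p = 0.000202). That bound sets the mean vehicle level against the lowest detected single-probe level on the estradiol arrays. Over the alternative processings the smallest changes were 0.05 for RECK, 0.11 for FURIN and -0.08 for TFPI2. PCSK7, a proprotein convertase like furin, and PCOLCE were not called (0.21 and 0.04).

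Of 6 tested regulators of ADAM10 and ADAM17, 2 rose and 4 were not called. TSPAN15, a tetraspanin partner of ADAM10, was detected on all 4 estradiol arrays and no vehicle array, and was at least 1.83-fold higher (limma adjusted p = 3.49e-05). Its smallest log2 change over the alternative processings was 0.07. RHBDF1 (iRhom1), which carries ADAM17 to the cell surface, rose by 0.53 (limma adjusted p = 0.00727). The tetraspanins TSPAN5, TSPAN14, TSPAN17 and TSPAN33 were not called, with changes of 0.44, 0.20, 0.20 and -0.29, and TSPAN5 passed the threshold without vehicle culture 1 (adjusted p = 0.0134). Among other metalloproteases and ADAMTS-like proteins 2 of 12 were tested. ADAMTSL5, a matrix protein related to ADAMTS enzymes but without a protease domain, read 8.80, 8.63 and 8.65 in estradiol cultures, against 6.31, 6.66 and 6.36 in vehicle cultures. The groups lay far apart, with a change of 2.25 (SE 0.12, limma adjusted p = 6e-07), or 4.75-fold higher. Over the alternative processings its smallest log2 change was 0.52. ADAMTSL4 was not called (0.17).

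Of 11 tested transcription factors known to bind MMP promoters, 2 rose, 4 fell and 5 were not called. The AP-1 subunits JUNB and JUN rose by 0.73 and 0.60 (limma adjusted p = 0.00157 and 0.00371), whereas FOSL1, another AP-1 subunit, was at -0.59 (0.00512). Over the alternative processings the smallest changes were 0.06 for JUNB and 0.53 for JUN, and FOSL1 lost the call with median centring. ETS2 and ETV4, of the ETS family, were at -0.70 and -0.49 (0.000706 and 0.0119). Their smallest changes over the alternative processings were -0.19 and -0.12. ETV4 lost the call without estradiol culture 3 (0.0632), without the repeat arrays and with median centring. NFKB1, which encodes a subunit of NF-kB, was at -0.61 (0.00140). JUND, ETV5, FOSL2, RELA and ETS1 were not called, with changes of 0.34, 0.17, 0.02, -0.04 and -0.29.

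**Figure D4:**
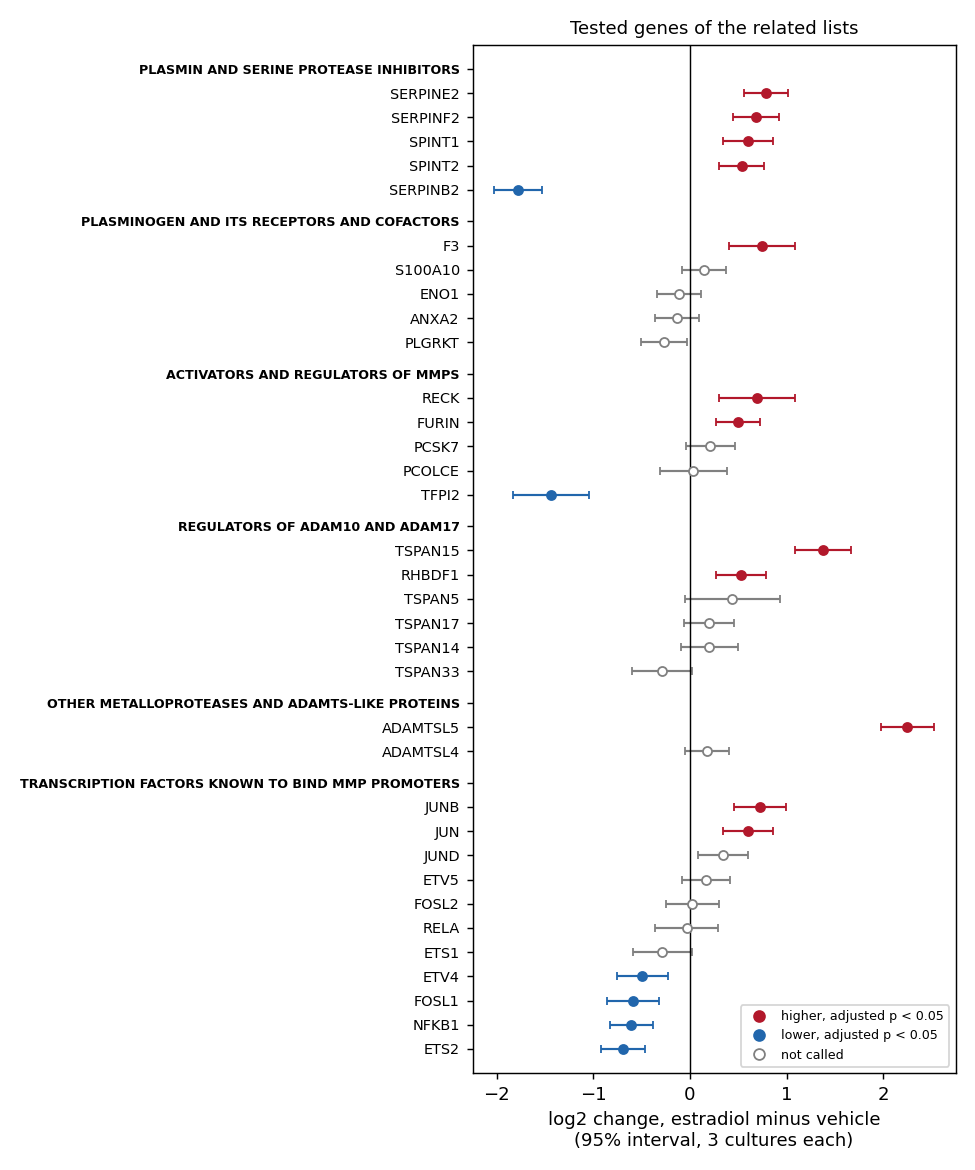
Log2 change (estradiol minus vehicle, horizontal axis) with its 95% interval for the 34 tested genes of the 6 related lists, 3 cultures per treatment. Red points are called higher, blue points called lower and open points not called; SERPINB2 at -1.78 and ADAMTSL5 at 2.25 are the outermost.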

How the data were processed

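RNA of 3 estradiol and 3 vehicle cultures was hybridised to 8 Illumina arrays, a repeat array of 1 culture per treatment included. Per the file headers, the deposited table holds a raw signal intensity and a detection p-value per gene row and array, not normalized; which software made it is not stated there. A second table deposited by the authors holds normalized intensities, whose method no header or label names, and was used as an alternative. Of 31412 named rows, 24130 were taken as single probes, since each detection p-value times 770 (the number of negative controls) is whole within 0.002; 7282 were taken as combined. Another 3266 rows were blank.

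Signals were background-corrected with normexp, the control mean and SD inferred from single-probe rows. An offset of 16 was added, which shrinks changes of dim genes, and values were log2 transformed and then quantile normalized in R 4.3.3 with limma 3.58.1. Arrays of a culture were averaged, following the titles; the series text places the estradiol repeat in culture 3 rather than 1, which was an alternative. Chip A held 3 arrays (1 estradiol, 2 vehicle) and chip B held 5 (3 estradiol, 2 vehicle). Rows with a detection p under 0.01 on at least 3 of 8 arrays were tested with lmFit and eBayes, without covariates, at a Benjamini-Hochberg threshold of 0.05. The number of arrays limits the precision, and nothing in the labels says that the cultures were grown independently, so p-values measure the spread between these samples, which may be technical.

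Genes named are all called genes, uncalled tested TIMPs, MMPs and plasminogen activation genes, and up to 6 genes per related list with the smallest p; others of the related lists are named by their change. Genes and lists were chosen with earlier results of these data known, so counts over lists are descriptions. A gene of the related lists is not reported here and was left out of their counts. All 72 symbols are current in GRCh38.p14, and 69 are protein coding. Promoters are from RefSeq. Alternatives covered repeat arrays, replicate and chip blocks, single chips, background correction, offset, normalization, the detection filter, the variance model and each culture left out.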

Additional observations from a re-analysis of the deposited data

How the results depend on the processing

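Over 21 alternatives, the count of the 72 genes called higher was within 1.5 times the reported 7 and the count called lower within 1.5 times the reported 5, with these exceptions: 12 were called higher with the chip as a block, 1 on chip A alone and 2 without vehicle culture 3. Calls over all tested rows, 1518 higher and 1586 lower as reported, were 2382 and 2690 with the chip as a block, 281 and 129 on chip A and 1035 and 922 without vehicle culture 3. Leaving out each culture in turn gave 2 to 7 higher and 4 to 5 lower. For the related lists, 2 were called higher and 2 lower on chip A alone, against 12 and 6. Chip A alone compares 1 estradiol array with 2 vehicle arrays, the lone array being assumed to vary like the others. In the chip-block fit the correlation of arrays of a culture was estimated at -0.569, which gives averaged repeats more weight. The replicate block, with the number in the titles as a block, gave 7 higher and 5 lower and kept all 12 calls, and changed no other call among the 20. Same-numbered cultures deviated together at r = 0.134, 0.134 and -0.033 (numbers 1, 2 and 3), so the numbers were not shown to pair the samples. Signs turned for 2 uncalled genes near 0: MMP23B was at -2.24e-05 with the background inferred from all rows and between -0.051 and 0.069 with each culture left out, and PCOLCE was at -0.13 with the chip as a block, -0.21 on chip A and between -0.13 and 0.14 with each culture left out. The causes were not tested. Signal over background limits the genes set aside other than ADAM19, and changes of MMP3, MMP14 and MMP15 rest on signals near it.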
